A study of Homo sapiens with 402 samples.

Results

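The libraries labelled MPB and PPB were examined, 30 of the 402 libraries of the series. MPB and PPB are the usual abbreviations of methylparaben and propylparaben, although the labels do not spell them out. Both are esters of para-hydroxybenzoic acid, and they differ in the alcohol part: MPB is the methyl ester and PPB the propyl ester. The members were chosen by treatment label alone, 15 libraries for each paraben, and no measured value entered the choice.

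The cells were MCF10A, a non-tumorigenic line of human breast epithelium with a wild-type genotype in the labels. They were plated in multiwell plates, dosed the next day, exposed for 48 h and lysed, and the lysate went straight into cDNA synthesis and barcoded RNA sequencing. MPB and PPB were each given at 0.025, 0.25, 2.5 and 25 µM in dimethyl sulfoxide (DMSO), with 3 libraries each at 0.025 µM and 4 at each other dose. The reference was the 15 libraries of the same plate that received DMSO without a chemical, so every group compared here shared DMSO, plate and exposure time. BPA, BPF and BPS, the names of 3 bisphenols, filled the other 48 libraries of that plate of 93. The labels speak of biological replicates but do not say whether wells came from separate cultures, so p-values measure the spread between these libraries.

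Parabens are preservatives of cosmetics, foods and medicines. Carboxylesterases cleave the ester bond to para-hydroxybenzoic acid, which does not carry the alkyl group. Intact parabens bind estrogen receptors weakly, and binding becomes stronger as the alkyl chain gets longer. The estrogen receptor alpha gene, ESR1, is the usual mediator of estrogen responses in breast cells, and MCF10A is commonly used as a line that has little of it.

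The labels number the replicates 1 to 4. Numbers 1 and 2 were analysed with the 8 controls numbered 17 to 24 as set 1, and numbers 3 and 4 with the 7 controls numbered 26 to 32 as set 2. At 0.025 µM number 1 was missing for both parabens, which left 1 library in set 1 and 2 in set 2. The labels do not call these sets batches. The set was a term of the model, and 3477 of 22301 genes differed between the sets at an adjusted p under 0.05 by edgeR's quasi-likelihood test, the threshold by which a gene is called throughout. Total counts ran from 8.90 M to 14.9 M for MPB, from 4.92 M to 15.5 M for PPB and from 7.33 M to 17.4 M for the controls (M, mega). Set 1 controls had a median of 15.75 M and set 2 controls 8.77 M. Levels are given in CPM, counts scaled to a common library total by TMM, so they are comparable between libraries for 1 gene but not between genes of different length.

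Both basal and luminal markers of breast epithelium were detected in the 45 control and paraben libraries. In CPM of the unscaled library total, the medians of the basal markers ranged from 1315 for KRT5 and 152 for KRT17 down to 13.5 for KRT14, 4.9 for KRT15 and 2.83 for TP63. Those of the luminal keratins were 4794 for KRT7, 521 for KRT18 and 422 for KRT8. KRT19 was at 0 in 43 libraries and the progesterone receptor gene PGR at 0 in all 45. Of the markers of other cell types, PTPRC and CD3E (immune), VWF (endothelial), COL1A2 (fibroblast) and LEP (adipocyte) were at 0 in all 45 libraries, while CD14 and DCN, with medians of 27.8 and 25.6 CPM, were detected in each. In bulk RNA, fewer cells of a type and less RNA per cell cannot be told apart.

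Across the 4 doses together, MPB libraries had lower levels of ribosomal protein and mitochondrially coded transcripts than controls and higher levels of several genes of the extracellular matrix. Averaged over the same doses, PPB libraries had fewer genes past the test. In the fit of all libraries edgeR called none of their ribosomal protein genes. The contrast did not hold in every fit or at every dose. At the highest dose of PPB, the fit within a single set called part of the ribosomal protein genes lower. At the lowest dose the fit of all libraries called 16 genes for PPB and 7 for MPB. The direct tests of MPB against PPB called 0, 0, 3 and 0 genes from the lowest to the highest dose. Both comparisons with controls used the same 15 control libraries, so their values are set side by side and not correlated.

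With all 4 doses averaged, 882 genes were called for MPB, 340 higher and 542 lower, which was 3.95% of the 22301 genes tested. For PPB 108 genes were called, 73 higher and 35 lower, or 0.484%. The median log2 difference over all genes was -0.08 for MPB and -0.07 for PPB. The fit within set 1 called 428 genes for MPB and that within set 2 called 453, with no library in common. Of these, 120 were called in both sets, which was 28% of the first list and 26.5% of the second, and all 120 had the same direction, 39 higher and 81 lower. For PPB the corresponding numbers were 138 and 45 genes, with 5 in both, also all in the same direction.

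Fibronectin, FN1, is a secreted glycoprotein that links the matrix to integrins. Its level with MPB was 194, 170 and 189 CPM at 0.025 µM in replicates 2 to 4. In replicates 1 to 4 it was 193, 218, 146 and 184 CPM at 0.25 µM, 222, 181, 204 and 194 CPM at 2.5 µM, and 423, 194, 179 and 145 CPM at 25 µM. Controls ran from 113 to 160 CPM with a median of 145 in set 1 and from 108 to 151 CPM with a median of 133 in set 2. Of the 15 MPB libraries, only replicate 3 at 0.25 µM and replicate 4 at 25 µM lay within the control range of their set. Averaged over doses, FN1 was higher by 0.56 ± 0.07 on the log2 scale (SE, n = 15 libraries against 15) with an adjusted p of 6.77e-09, and by 0.66 in set 1 and 0.40 in set 2. With PPB the levels were 233, 125 and 131 CPM at 0.025 µM and 171, 176, 193 and 191 CPM at 25 µM. The PPB difference averaged over doses was 0.26 ± 0.07 with an adjusted p of 0.0988.

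The list of 26 tested genes of matrix proteins and integrins had 8 members higher and none lower with MPB averaged over doses, with a median log2 difference of 0.15. FN1 and TGFBI were among those called in both sets. TGFBI, a matrix protein induced by TGF-beta, was higher by 0.21 ± 0.03 (SE, adjusted p = 1.02e-07). The count of higher members was 5 without MPB replicate 1. With PPB only TGFBI passed the test among the matrix genes, at 0.12 ± 0.03 and an adjusted p of 0.029. Over all genes the MPB median was -0.08, and 3.95% were called with MPB and 0.484% with PPB.

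**Figure D1:**
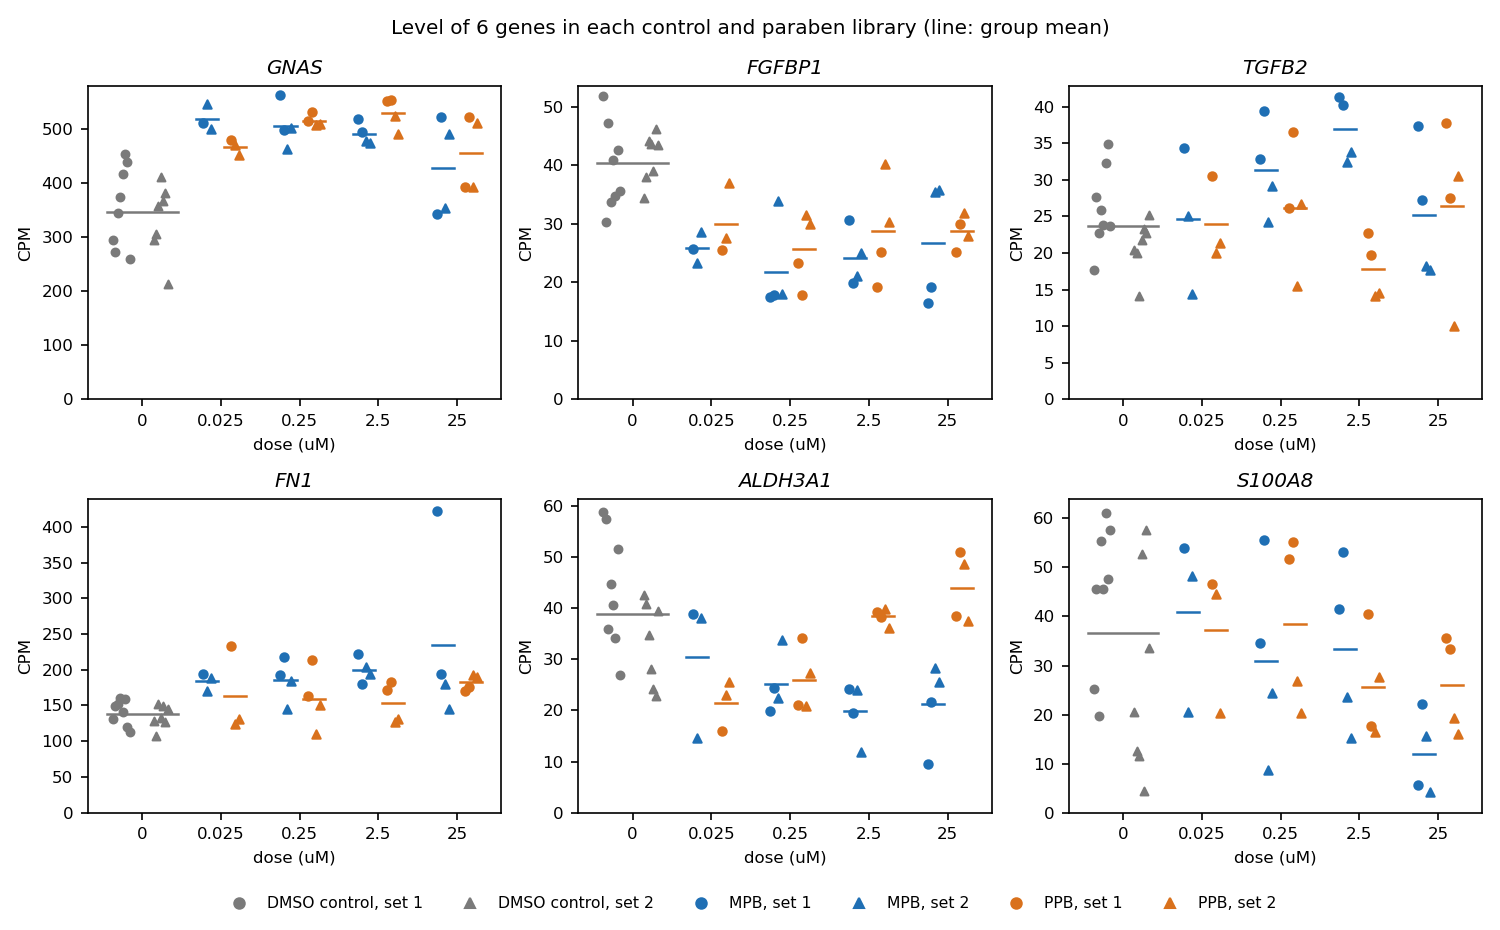
Level in CPM (vertical axis, from 0) of GNAS, FGFBP1, TGFB2, FN1, ALDH3A1 and S100A8 in each control and paraben library by dose in µM (horizontal axis, 0 for controls), with circles for set 1, triangles for set 2 and lines for group means. FN1 at 25 µM MPB stands at 423 CPM in replicate 1 and at 145 to 194 CPM in the other 3 libraries, while the GNAS libraries of both parabens lie above every set 2 control at 0.025, 0.25 and 2.5 µM.

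Ribosomal protein genes encode the structural proteins of the ribosome and are among the most abundant short messenger RNAs. Of 76 such genes tested, 73 were lower and none higher with MPB averaged over doses, and the median log2 difference was -0.25. With PPB 0 of the 76 were called by edgeR and 0 by DESeq2, 16 had an unadjusted p under 0.05, and the median was -0.07. The summed share of these genes in all counts shows the same libraries directly. It ran from 8.18% to 9.96% in the 15 controls. With MPB it was 8.83% ± 0.138 (SD, n = 3) at 0.025 µM and 8.27% ± 0.594 (SD, n = 4) at 0.25 µM. At 2.5 µM MPB the 4 libraries had 8.12%, 9.38%, 7.01% and 7.14%, and at 25 µM they had 6.79%, 7.25%, 8.73% and 7.88%. The lowest were replicates 3 and 4 at 2.5 µM, in set 2, and replicates 1 and 2 at 25 µM, in set 1. Replicate 1 at 2.5 µM and replicate 4 at 25 µM were also below all 15 controls. With PPB the share ran from 7.90% to 8.67% at 25 µM, with a mean of 8.28% ± 0.320 (SD, n = 4). Replicate 1 of 25 µM PPB, at 7.90%, was below all 15 controls. Replicates 3 and 4, at 8.22% and 8.33%, were below all set 2 controls, whose lowest was 8.69%. The lower doses of PPB had means of 9.22%, 9.06% and 9.01%. The 48 bisphenol libraries of the plate had a mean share of 8.50% ± 0.606 (SD), from 7.13% to 9.99%. Over all doses the mean was 8.13% with MPB and 8.87% with PPB, against 9.175% in controls (n = 15 each). At 25 µM the bisphenol means were 8.77% in set 1 and 8.27% in set 2 (n = 6 each). At 25 µM PPB, 72 of the 76 genes had an unadjusted p under 0.05 and DESeq2 called 4, with a list median of -0.25.

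RPS29, a small ribosomal subunit protein, was named for its large difference between MPB and PPB, so it does not stand for the whole list. At 25 µM MPB its log2 difference against controls was -0.62, and neither set alone called the gene (adjusted p = 0.199 and 0.205, edgeR). With MPB it was at 307, 317 and 373 CPM at 0.025 µM and at 237, 200, 359 and 224 CPM at 25 µM. With PPB it was at 477, 495 and 435 CPM at 0.025 µM and at 248, 286, 309 and 311 CPM at 25 µM. Controls ran from 272 to 473 CPM in set 1 and from 410 to 508 CPM in set 2. The MPB libraries of set 2 were below all set 2 controls at these doses, and so were those of PPB at 25 µM. The PPB libraries of 0.025 µM were within or above the control range. RPS29 had a log2 difference of -0.48 ± 0.08 with MPB averaged over doses (SE, adjusted p = 3.57e-06), and of -0.09 with PPB (adjusted p = 0.766). The direct difference MPB minus PPB was -0.39 with a 95% interval from -0.54 to -0.23 and an adjusted p of 0.00624. It lost its call without MPB replicate 1, with a difference of -0.35 and an adjusted p of 0.104. Ribosomal protein genes have many processed pseudogenes of near-identical sequence, and how the counting assigned shared reads is not given in the sources used here.

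The 13 protein genes of the mitochondrial genome, which encode subunits of the respiratory chain and of ATP synthase, moved the same way. Of these, 10 were lower with MPB averaged over doses, with a median of -0.19, and 0 with PPB by edgeR and by DESeq2, with 4 at an unadjusted p under 0.05 and a median of -0.05. At 25 µM PPB 8 of the 13 had an unadjusted p under 0.05 and DESeq2 called 1. Cytochrome c oxidase subunit 2, MT-CO2, was at 7441, 6952 and 7596 CPM at 0.025 µM MPB and at 4802, 5279, 7100 and 6473 CPM at 25 µM. At 25 µM PPB it was at 6234, 6979, 6826 and 6836 CPM. Controls lay between 6346 and 8994 CPM in set 1 and between 7407 and 8970 CPM in set 2. All MPB libraries at 25 µM were below the controls of their set, with replicates 1 and 2 lowest. So was every PPB library at 25 µM except replicate 2. Of all 22301 genes, 96 were below the controls of their set in every library of 25 µM MPB. MT-CO2 fell by 0.29 on the log2 scale with MPB averaged over doses, with an SE of 0.04 and an adjusted p of 3.13e-07. The difference with PPB was -0.06 ± 0.04 (SE, adjusted p = 0.737), and MPB minus PPB was -0.23 with a 95% interval from -0.31 to -0.15 and an adjusted p of 0.00261. No gene was called in that contrast by edgeR without MPB replicate 1, MT-CO2 included.

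**Figure D2:**
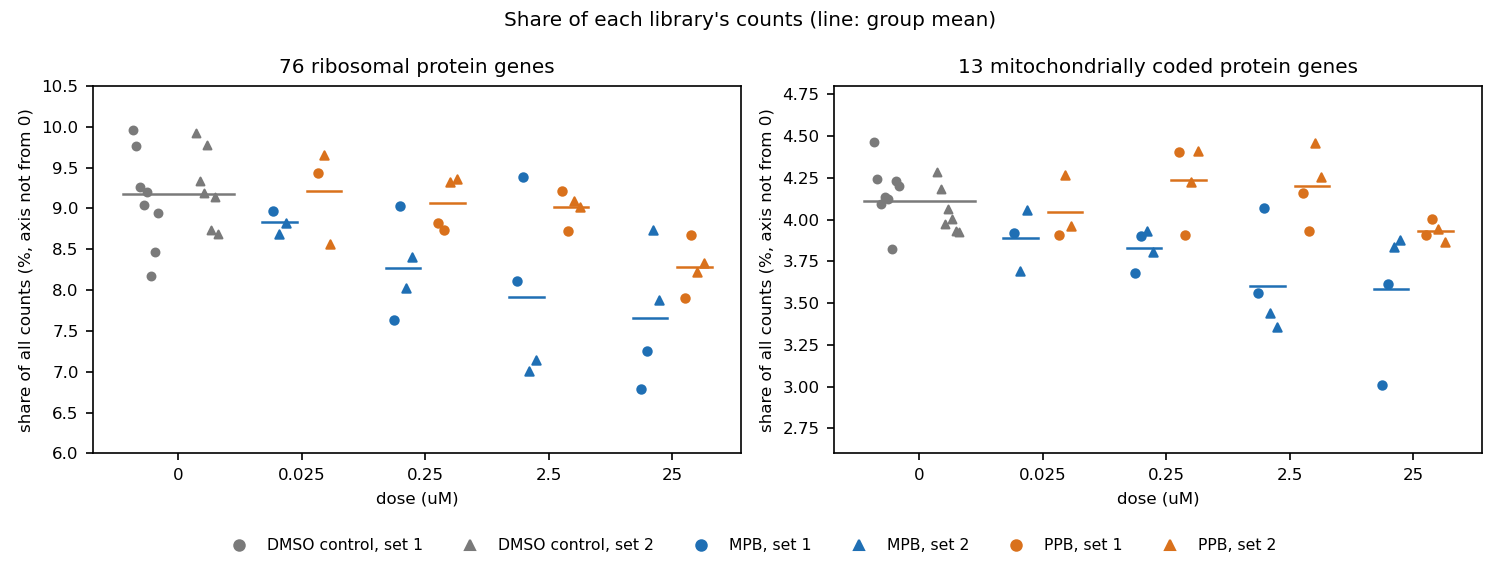
Share of each library's counts (vertical axes in percent, not starting at 0) taken by 76 ribosomal protein genes and by 13 mitochondrially coded protein genes, by dose in µM, with circles for set 1, triangles for set 2 and lines for group means. The ribosomal share of MPB libraries at 2.5 and 25 µM spreads from 6.79% to 9.38%, and controls lie between 8.18% and 9.96%.

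These shifts went with transcript length. Ribosomal protein and mitochondrially coded transcripts are short. At 25 µM MPB the genes called lower had a median transcript length of 1170 nucleotides and those called higher 3907. All tested genes with a length had a median of 2438. Of those, 9373 had an average log2 CPM of at least 3. In 10 equal bins of the 9373 by length, bins 5 and 6 had median lengths of 3098.5 and 3682. Over the 9373 genes the rank correlation of the log2 difference with length was 0.41 at 2.5 µM MPB and 0.30 at 25 µM MPB. At the same doses of PPB it was -0.09 and 0.32. These are descriptions across genes of 1 experiment, and genes are not independent replicates. The shortest of 10 equal bins of these genes had a median log2 difference of -0.22 at 2.5 µM MPB, -0.21 at 25 µM MPB, -0.00 at 2.5 µM PPB and -0.15 at 25 µM PPB. When each library's trend on length and GC content was removed, the number of ribosomal protein genes called lower with MPB averaged over doses went from 73 to 50 and that of mitochondrially coded genes from 10 to 2. FN1 kept its call for MPB averaged over doses after that step. What moved the length trend was not tested.

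**Figure D3:**
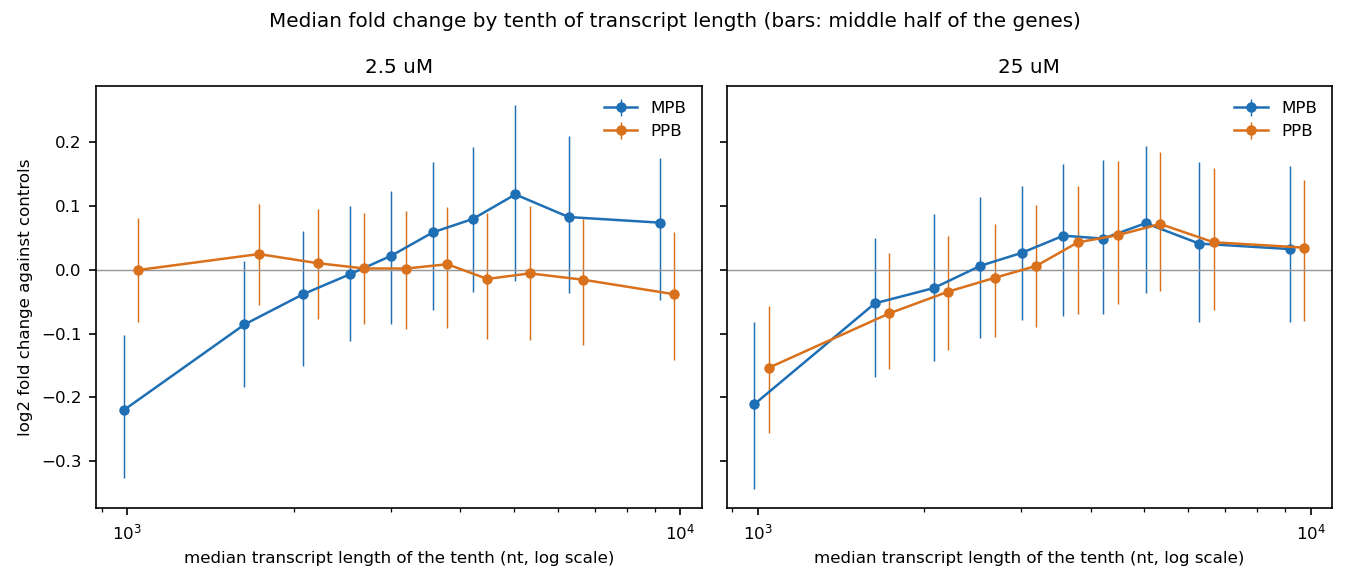
Median log2 difference against controls (vertical axis) of 10 equal bins of genes ordered by transcript length (horizontal axis, nucleotides on a log scale) at 2.5 and 25 µM, with bars from the lower to the upper quartile of the genes in each bin. The shortest bin lies at -0.22 for MPB and -0.00 for PPB at 2.5 µM, and at -0.21 and -0.15 at 25 µM.

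Dose by dose, MPB called 7 genes at 0.025 µM, 6 higher and 1 lower, which was 0.0314% of the genes tested. At 0.25 µM it called 90, with 47 higher and 43 lower, or 0.404%. At 2.5 µM it called 422, with 135 higher and 287 lower, or 1.89%, and at 25 µM 492, with 180 higher and 312 lower, or 2.21%. A linear trend contrast over the 4 doses, which lie 10-fold apart, called 10 genes, all falling, or 0.0448%. The controls did not enter that contrast. The 2 higher doses each leaned on particular libraries. Without MPB replicate 1 the count at 25 µM was 59, and without replicate 3 it was 704. At 2.5 µM the count was 72 without replicate 3, 101 without replicate 4 and 714 without replicate 2. Within set 1 the counts at 2.5 and 25 µM were 40 and 837, and within set 2 they were 706 and 51. Tested directly, the effect of MPB differed between the sets for 119 genes at 2.5 µM and 29 genes at 25 µM, for 1 gene at 0.025 µM and for 0 at 0.25 µM, where 846 had an unadjusted p under 0.05. The same test called 0 genes at any dose of PPB, with 1120, 857, 1091 and 797 genes that had an unadjusted p below 0.05.

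**Figure D4:**
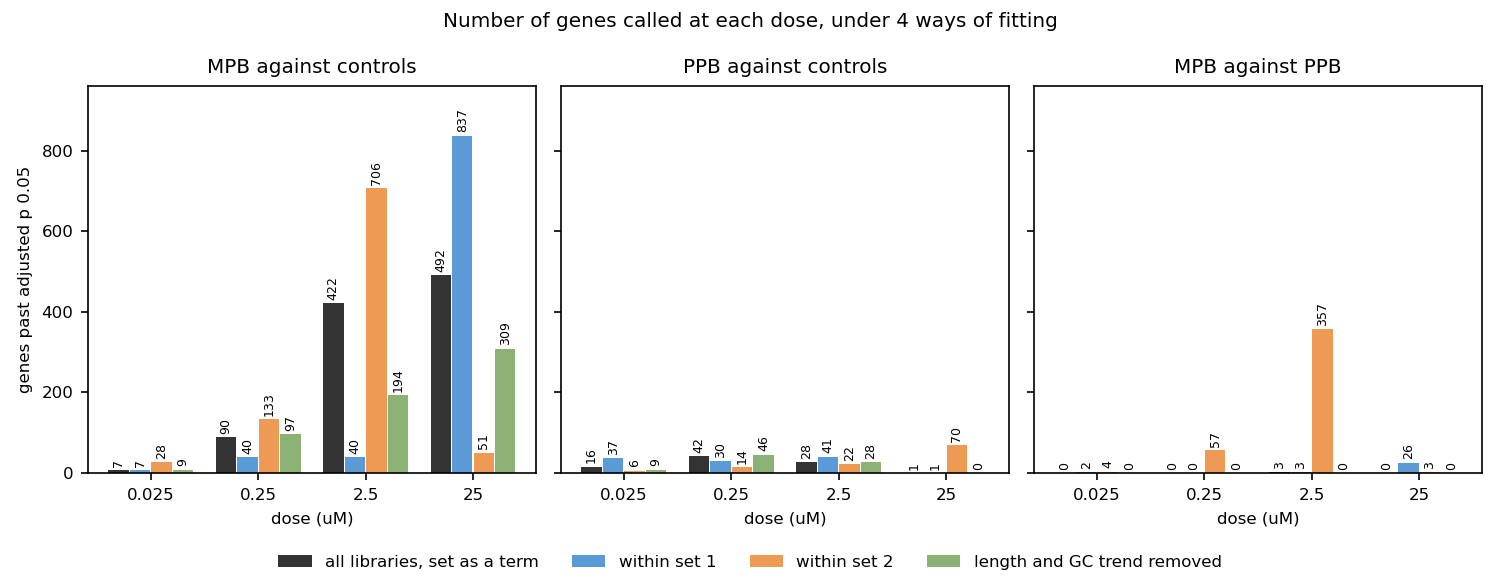
Number of genes called at an adjusted p under 0.05 (vertical axis) at each dose in µM for MPB against controls, PPB against controls and MPB against PPB, with 1 bar for each of 4 fits. For MPB at 25 µM the bars stand at 492 for all libraries, 837 within set 1, 51 within set 2 and 309 with the length and GC trend removed.

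At 0.025 µM MPB the called genes included LIF, a cytokine of the interleukin-6 family. Among all 22301 genes, every library of this dose lay above the controls of its set for 122 genes and below them for 72. LIF was at 13.4, 17.5 and 21.6 CPM, above its controls of 1.34 to 7.45 CPM in set 1 and 2.41 to 9.74 CPM in set 2. Its log2 difference was 1.54 ± 0.33 (SE, n = 3 against 15, adjusted p = 0.027), and the call was lost by DESeq2 (adjusted p = 0.142), without MPB replicate 4 (0.45) and without control 26 (0.0684). GNAS, which encodes the stimulatory G protein alpha subunit, was at 511, 546 and 500 CPM, above all 15 controls, whose highest was 454 CPM, with a difference of 0.61 ± 0.10 (SE, adjusted p = 7.14e-05), though neither set alone called it. NBL1, HNRNPA0 and TNIP1 were higher by 0.53, 0.47 and 0.46. The gene called lower was SCNN1B, a subunit of the epithelial sodium channel, at 25.6, 16.4 and 24.6 CPM. Its set 1 controls had 60.5 to 82.5 CPM and its set 2 controls 26.4 to 46.2 CPM, so all 3 libraries lay below the controls of their set. Its difference of -1.07 ± 0.21 (SE, adjusted p = 0.00699) was -0.88 without replicate 2, with an adjusted p of 0.208.

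At 0.25 µM MPB the leading genes higher were TSHZ1, PHRF1, RPS6KA4, MED25 and CSF3, by 0.68 to 0.84, and the leading genes lower were TNNI2, FLRT3, EPCAM, FGFBP1 and ETNK2, by -1.51 to -0.84 on the log2 scale. CSF3 is the granulocyte colony-stimulating factor. Averaged over doses it was higher by 0.59 ± 0.09 with MPB (SE, adjusted p = 1.1e-06) and by 0.46 ± 0.09 with PPB (SE, adjusted p = 0.00191), with 15 libraries against 15 each time. FN1 and TGFBI were among the matrix genes that rose, and 3 of 76 ribosomal protein and 2 of 13 mitochondrially coded genes fell. The pathway lists, which leave out the cell type markers, held 454 distinct genes. Of these 7 rose and 9 fell at this dose, against 1 and 0 at 0.025 µM. Over all genes 0.404% were called at 0.25 µM and 0.0314% at 0.025 µM.

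At 2.5 µM MPB, where 1.89% of all genes were called, 62 of 76 ribosomal protein genes and 9 of 13 mitochondrially coded genes fell. Their medians were -0.31 and -0.27, against -0.03 over all genes. Without replicate 3 the counts were 3 and 4, and without replicate 4 they were 6 and 4. Of 21 tested targets of NRF2, the oxidative stress regulator, 6 fell and none rose: the aldo-keto reductases AKR1C1, AKR1C2 and AKR1C3, TKT, FTH1 and FTL. AKR1C2 was at 98.0, 105, 51 and 55.9 CPM, below its set 1 controls of 155 to 210 CPM and its set 2 controls of 58.1 to 94.4 CPM. Its difference was -0.70 ± 0.11 (SE, adjusted p = 2.54e-05), and AKR1C2, AKR1C3 and the aldehyde dehydrogenase gene ALDH3A1 were each called lower within both sets. The AKR1C genes are near-identical copies, so reads may have been divided between them. The list of 26 DNA replication genes had RRM2 and CDC45 higher, and KIF11 and BUB1 rose among 24 mitosis genes. RRM2, the ribonucleotide reductase subunit that limits nucleotide supply, was called within both sets, at 0.35 and 0.27.

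At 25 µM MPB, where 2.21% of all genes were called, 20 of the 454 pathway genes rose and 100 fell. Of those that fell, 73 were ribosomal protein and 10 mitochondrially coded genes. The medians of these lists were -0.37 and -0.29, against -0.04 over all genes. Without MPB replicate 1, 28 of the 73 and 2 of the 10 were still called. Matrix genes had 9 of 26 higher, among them FN1, COL4A1, LAMB3, COL4A2, ITGA5, TGFBI and THBS1, with a median of 0.24, and without replicate 1 the count was 2, with TGFBI at 0.22 (adjusted p = 0.0115). Outside these 3 lists, ANGPTL4 was the 1 list gene still called without replicate 1. The calls lost included CXCL8, the neutrophil chemokine interleukin-8, and the ERK feedback genes PHLDA1, FOSL1 and DUSP4, which rose by 0.64, 0.45, 0.43 and 0.36. E2F1, CDT1 and RRM2 of the DNA replication list rose by 0.48, 0.34 and 0.23. The NRF2 targets went both ways at this dose: TXNRD1 rose by 0.32, and AKR1C2 and TKT fell by 0.54 and 0.14. These 3 calls were also lost without replicate 1. Metallothioneins MT1X, MT1E and MT2A fell by 0.56, 0.48 and 0.35, and 4 of 22 hypoxia and glycolysis genes fell, CA9 most, with -1.73. ANGPTL4, a secreted inhibitor of lipoprotein lipase and a target of PPAR receptors, rose by 0.39, and by 0.25 without replicate 1 (adjusted p = 0.0467).

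Of the 23 genes named at 25 µM MPB, 11 rose: SF3A2, CEP131, ARHGEF40, LRRC45, RUSC2, KIFC2, LIG4, GPRIN1, TLNRD1, TMEM132A and AFAP1L2, from 1.02 down to 0.78. SF3A2 is a spliceosome component, CEP131 a centrosomal protein and LIG4 the ligase of non-homologous end joining. The other 12 fell: S100A8, PLAC8, S100A9, WFDC21P, TMEM42, RPS27P29, MTURN, ALDH3A1, PTMAP5, TGM1, IFI27L2 and EPCAM, from -1.56 to -0.82. In the second group S100A8, S100A9 and TGM1 belong to squamous differentiation, RPS27P29, PTMAP5 and WFDC21P are pseudogenes, and EPCAM is an epithelial adhesion molecule. Of the 23 genes, 13 were called within set 1, 0 within set 2, and 1 without MPB replicate 1, PLAC8. DESeq2 called 21 of them.

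S100A8 is 1 subunit of calprotectin, a calcium-binding protein of keratinocytes and myeloid cells. It was at 5.63, 22.2, 15.5 and 4.13 CPM at 25 µM MPB and at 35.5, 33.4, 19.4 and 16.1 CPM at 25 µM PPB. Controls ran from 19.7 to 61.1 CPM in set 1 and from 4.42 to 57.5 CPM in set 2, with medians of 46.6 and 20.6. Only replicates 1 and 4 of MPB lay below the controls of their set. The MPB difference was -1.56 ± 0.32 (SE, adjusted p = 0.000607), -1.59 in set 1 and -1.51 in set 2, and -1.21 with an adjusted p of 0.109 without replicate 1. S100A8 was also 1 of the 10 genes with a falling dose trend for MPB, by -0.57 ± 0.12 on the log2 scale per 10-fold dose (SE, adjusted p = 0.0458). That call was lost without the filter or the set term, within either set, with the length and GC trend removed and without MPB replicate 1 or 4, and DESeq2 gave it no adjusted p.

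ALDH3A1 oxidizes aldehydes and is a target of the aryl hydrocarbon receptor (AhR). With MPB it was at 24.2, 19.5, 23.9 and 11.9 CPM at 2.5 µM and at 9.44, 21.6, 28.3 and 25.6 CPM at 25 µM. With PPB it was at 39.2, 38.4, 39.9 and 36.2 CPM at 2.5 µM and at 38.5, 51.1, 48.7 and 37.6 CPM at 25 µM. Controls ran from 26.9 to 58.9 CPM in set 1 and from 22.9 to 42.7 CPM in set 2. Every PPB library at these doses was above every MPB library. Against controls ALDH3A1 fell with MPB by 0.97 at 2.5 µM and by 0.91 at 25 µM, with SEs of 0.20 and adjusted p of 0.00164 at each dose, and differed by 0.14 ± 0.18 with PPB at 25 µM (adjusted p = 0.891). Tested directly over all genes and the 4 doses, MPB minus PPB was -0.96 at 2.5 µM, with a 95% interval from -1.43 to -0.49 and an adjusted p of 0.177, and -1.05 at 25 µM, with an interval from -1.54 to -0.56 and an adjusted p of 0.13. Against controls, the MPB difference at 25 µM was -0.63 without MPB replicate 1, with an adjusted p of 0.286. The other 5 tested AhR targets had no call at 25 µM of either paraben. CYP1A1, the cytochrome that AhR ligands induce most, was at 0.828, 5.23, 1.88 and 3.29 CPM at 25 µM MPB, with a difference of -0.78 (adjusted p = 0.462), and of -0.93 with PPB (adjusted p = 0.669).

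ESR1 was at 0 in 29 of the 45 libraries and reached 1.96 CPM at most, on the TMM scale. None of the 5 estrogen receptor and related genes tested was called at 25 µM of either paraben by edgeR, and none had an unadjusted p under 0.05. Over all genes 2.21% were called at that dose with MPB and 0.00448% with PPB. GPER1, the membrane estrogen receptor, was at 9.60, 10.1, 12.6 and 13.1 CPM at 25 µM MPB and at 19.4, 13.1, 14.3 and 11.9 CPM at 25 µM PPB, against 7.88 to 21.2 CPM in set 1 controls and 6.28 to 15 CPM in set 2 controls. These libraries lay within the control range of their set, with differences of -0.27 (adjusted p = 0.737) and 0.12 (adjusted p = 0.912). Of 11 estrogen targets, RERG was called at 25 µM MPB, where 5 were at an unadjusted p under 0.05, and 0 at 25 µM PPB, where 1 was. CTSD was called at 0.25 µM MPB, and CTSD and RERG at 2.5 µM, all lower. RERG, a small GTPase that estrogen induces in breast cells, was at 1.32, 3.07, 4.8 and 4.66 CPM and fell by 1.11 ± 0.33 on the log2 scale (adjusted p = 0.0398, edgeR), a call that was lost without replicate 1. GREB1, another estrogen target, was at 0, 4.84, 2.73 and 4.24 CPM, with a difference of -0.60 ± 0.41 (adjusted p = 0.666). Averaged over doses with MPB, CTSD and RERG fell and IGFBP4 rose, 3 of the 11, against 3.95% of all genes called. CTSD, the protease cathepsin D, fell by 0.29 ± 0.06 (adjusted p = 0.000502), by 0.51 within set 1 and with a difference of 0.01 within set 2.

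None of 11 tested genes of ester hydrolysis and of conjugation was called at 25 µM of either paraben by edgeR, and 0 were at an unadjusted p under 0.05. The carboxylesterase gene CES2 was at 33.9, 25.4, 27.2 and 12.4 CPM with MPB and at 25.8, 25.0, 20.8 and 28.1 CPM with PPB. Its set 1 controls ran from 27.9 to 31.9 CPM and its set 2 controls from 13.1 to 41.1 CPM. The differences were -0.22 (adjusted p = 0.71) and -0.20 (adjusted p = 0.88), and CES1 differed by 0.47 ± 0.32 with MPB (adjusted p = 0.651). NQO1, a quinone reductase induced by NRF2, was at 985, 847, 755 and 722 CPM at 25 µM MPB, a difference of 0.14 ± 0.05 (adjusted p = 0.117). The proliferation marker MKI67 was at 284, 293, 254 and 298 CPM, a difference of 0.13 (adjusted p = 0.425). At 25 µM MPB, 0 of 20 p53 targets, 0 of 15 chaperones of the endoplasmic reticulum, 0 of 13 heat shock genes, 0 of 22 interferon genes and 0 of 24 mitosis genes were called, with 3, 1, 4, 4 and 4 at an unadjusted p under 0.05. At 25 µM PPB the same lists had 0 calls and 1, 1, 3, 2 and 4 members at that p. Over all 22301 genes, 2.21% were called and 2527 were at that p with 25 µM MPB. With 25 µM PPB 0.00448% were called and 1561 were at that p. In lists this short, 0 calls is near those shares and does not show that a response was absent.

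Averaged over the 4 doses of MPB, where 3.95% of all genes were called, some other lists had calls in 1 direction. Of 26 DNA replication genes 11 were higher and none lower, among them CCNE2, CCNE1 and E2F1 at 0.40, 0.33 and 0.33, with a list median of 0.17. This count was 2 without MPB replicate 1, and it was 6 within set 1 and 0 within set 2. Of 20 cytokine genes IL1B, CXCL8, CCL20 and CXCL1 were higher, by 0.62, 0.49, 0.42 and 0.40, and the count was 4 without each of the 4 MPB replicate numbers. Of 16 genes of squamous differentiation KRT16, TGM1, DSG3 and KRT17 were lower, by -0.97, -0.62, -0.44 and -0.27, a count that was 1 without replicate 1 and 1 without replicate 3. Basal keratins KRT15 and KRT14 were lower by -1.0 and -0.64, and the luminal marker EPCAM by -0.69. Their medians were 4.90, 13.5 and 20.4 CPM of the unscaled total, against 1315 for KRT5, so they do not stand for the marker lists. KRT14 was the 1 basal and EPCAM the 1 luminal marker called in both sets. At 25 µM MPB the luminal list had 2 of 10 higher, CD24 by 0.54 and KRT7 by 0.14, and 2 lower, EPCAM by -0.82 and MUC1 by -0.78. CD24, a surface glycoprotein, was called within both sets at that dose, at 0.62 and 0.48. Without MPB replicate 1 CD24, KRT7, EPCAM and MUC1 all lost their calls, with differences of 0.30, 0.12, -0.60 and -0.60 and adjusted p from 0.275 to 0.545. TSC22D3, a glucocorticoid-induced gene, was called within set 1 (-0.81) and not within set 2 (-0.34, adjusted p = 0.119). It was lower by -0.60 ± 0.08 with MPB (SE, adjusted p = 1.02e-07) and by -0.36 ± 0.08 with PPB (SE, adjusted p = 0.0118).

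PPB called 16 genes at 0.025 µM, 13 higher and 3 lower, which was 0.0717% of those tested. It called 42 at 0.25 µM, 33 higher and 9 lower, or 0.188%, and 28 at 2.5 µM, 20 higher and 8 lower, or 0.126%. At 25 µM it called 1 gene, or 0.00448%, with 1561 at an unadjusted p under 0.05 and 40 called by DESeq2. The linear dose trend called 1 gene, or 0.00448%. In this fit of all libraries the PPB counts were below those of MPB from 0.25 µM up. Within set 2 at 25 µM the order was reversed, with 70 for PPB and 51 for MPB. Within set 1 at 2.5 µM the counts were 41 for PPB and 40 for MPB. At 0.025 µM the order of the parabens also depended on the fit, with 10 for PPB and 25 for MPB by DESeq2, 6 and 28 within set 2, and 0 for PPB without PPB replicate 2. At 0.025 µM the leading genes were ZNF787, CSNK2A2, NACC1, RPS6KA4 and CSF3, higher by 0.71 to 1.22, and SYNE2, EFEMP1 and KRT8, lower by -0.73, -0.40 and -0.31. At 0.25 µM they were SF3A2, KCTD2, OSBP, AVEN and DUS1L, higher, and DLG3, FGFBP1, SYT8, SCNN1B and TSC22D3, lower. At 2.5 µM MARK4, SPINDOC, SPHK2, ANKRD9 and CLPTM1L were higher and ETNK2, KRT17, TXNIP, AKR1C2 and MTRNR2L12 lower.

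Of the 454 genes of the pathway lists, 0 passed the test with PPB at 0.025 µM, where the luminal marker KRT8 did, 2 rose and 2 fell at 0.25 µM, 2 rose and 2 fell at 2.5 µM and 0 passed at 25 µM, with 61 and 134 at an unadjusted p under 0.05 at the lowest and highest dose. Over all genes 0.0717%, 0.188%, 0.126% and 0.00448% were called from the lowest to the highest dose of PPB. At 0.25 µM EGR1, an immediate early transcription factor, and CEBPB rose by 0.51 and 0.35, and TSC22D3 and KRT17 fell by 0.60 and 0.46. At 2.5 µM ANGPTL4 and CDC45 rose by 0.29 and 0.39, and KRT17 and AKR1C2 fell by 0.61 and 0.43. Averaged over doses, ANGPTL4, CEBPB and TGFBI rose and TSC22D3, AKR1C2, KRT17, HMGCS1, ACSS2 and DDIT4 fell. HMGCS1, an early enzyme of cholesterol synthesis, and ACSS2, which makes acetyl-CoA from acetate, fell by 0.21 and 0.31. Within set 2 at 25 µM PPB, 32 of 76 ribosomal protein genes were called lower, and within set 1 0 were, with medians of -0.26 and -0.21.

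The 1 gene called at 25 µM PPB was ZFAS1, a long noncoding RNA that hosts small nucleolar RNAs. It was at 44.8, 40.0, 34.6 and 44.2 CPM with PPB and at 35.3, 41, 44.2 and 44.2 CPM with MPB. Controls ran from 44.1 to 80.4 CPM in set 1 and from 62.0 to 78.6 CPM in set 2. All 8 paraben libraries were below the controls of their set except PPB replicate 1. ZFAS1 fell by 0.67 ± 0.13 with PPB (SE, adjusted p = 0.0197, edgeR) and by 0.70 ± 0.12 with MPB (SE, adjusted p = 5.37e-05, edgeR), and the difference between the parabens was -0.03 with a 95% interval from -0.37 to 0.31. The PPB call was lost without any single PPB replicate number, with adjusted p from 0.0673 to 0.129, and also without control 18, within set 1 and with the length and GC trend removed. DESeq2 gave ZFAS1 no adjusted p.

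Several genes were called with both parabens averaged over doses. GNAS at 25 µM was at 343, 522, 355 and 491 CPM with MPB and at 394, 523, 393 and 510 CPM with PPB, and its controls ran from 260 to 454 CPM in set 1 and from 213 to 411 CPM in set 2. Averaged over doses it was higher by 0.49 ± 0.06 with MPB (SE, adjusted p = 3.38e-10) and by 0.52 ± 0.06 with PPB (SE, adjusted p = 4.1e-11), and the difference between them was -0.02 with a 95% interval from -0.13 to 0.09. FGFBP1, a secreted carrier of fibroblast growth factors, was at 16.5, 19.1, 35.4 and 35.7 CPM at 25 µM MPB and at 25.1, 30.0, 31.9 and 27.9 CPM at 25 µM PPB. Its controls ran from 30.3 to 51.7 CPM in set 1 and from 34.4 to 46.1 CPM in set 2, so all these libraries except MPB replicates 3 and 4 were below them. FGFBP1 was lower by -0.78 ± 0.10 with MPB (SE, adjusted p = 2.78e-09) and by -0.56 ± 0.10 with PPB (SE, adjusted p = 0.000172), with a difference of -0.22 and a 95% interval from -0.43 to -0.00. CCN1, a matricellular protein, was higher by 0.55 with MPB and 0.36 with PPB, with adjusted p of 9.41e-10 and 0.000631. The bisphenol libraries of the same plate also had FGFBP1 medians of 27.1 CPM in set 1 and 31.6 CPM in set 2, below the control medians of 38.3 and 43.5. For GNAS the bisphenol medians were 511 and 467 CPM against control medians of 360 and 358.

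The parabens were compared directly in 4 pairs, 1 at each dose, with p-values adjusted over all genes of the 4 pairs together. At 0.025 µM 0 genes were called, which was 0%, with 859 at an unadjusted p under 0.05 and 0 called by DESeq2. At 0.25 µM 0 were called, also 0%, with 1057 at that p and 1 called by DESeq2. At 2.5 µM 3 were called, or 0.0135%, and at 25 µM 0, or 0%, with 1209 at that p and 0 called by DESeq2. Adjusted within each dose alone, the counts were 0, 0, 39 and 0. Of the 454 pathway genes none was called in any pair, with 21, 72, 133 and 65 at an unadjusted p under 0.05. The median difference of the ribosomal protein genes, MPB minus PPB, was -0.09, -0.18, -0.25 and -0.13 from the lowest to the highest dose, and that of the mitochondrially coded genes -0.04, -0.19, -0.27 and -0.15.

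TGFB2, a secreted growth factor of the TGF-beta family, was the gene called higher with MPB at 2.5 µM. It was at 41.2, 40.2, 32.4 and 33.9 CPM with MPB and at 22.7, 19.7, 14.1 and 14.6 CPM with PPB. Controls ran from 17.6 to 34.9 CPM in set 1 and from 14.1 to 25.2 CPM in set 2, so MPB lay above the controls of each set and PPB within or at the edge of them. MPB was 2.1-fold higher than PPB, a log2 difference of 1.07 ± 0.20 (SE) with a 95% interval from 0.68 to 1.46 and an adjusted p of 0.0134, and 0.93 within set 1 and 1.21 within set 2. Against controls TGFB2 rose by 0.67 ± 0.15 with MPB (SE, adjusted p = 0.00328) and differed by -0.40 ± 0.17 with PPB (SE, adjusted p = 0.756). At 25 µM the difference between the parabens was -0.19 with a 95% interval from -0.60 to 0.22.

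TIMP1, an inhibitor of matrix metalloproteinases, and PPP1R14B, a regulatory inhibitor of protein phosphatase 1, were called lower with MPB at 2.5 µM. TIMP1 was at 2214, 2855, 1492 and 1555 CPM with MPB and at 3580, 3558, 2108 and 2065 CPM with PPB, with controls of 1996 to 2939 CPM in set 1 and 1791 to 2154 CPM in set 2. In each set the PPB libraries were above the MPB libraries, and in set 1 the PPB libraries were above all controls. The difference was -0.48 ± 0.09 (SE) with a 95% interval from -0.65 to -0.30 and an adjusted p of 0.0134. Against controls TIMP1 rose by 0.35 ± 0.07 with PPB (SE, adjusted p = 0.00535) and differed by -0.13 with MPB (adjusted p = 0.507). PPP1R14B was at 234, 307, 241 and 256 CPM with MPB and at 335, 356, 480 and 354 CPM with PPB, and the difference was -0.56 ± 0.11 (SE) with a 95% interval from -0.77 to -0.35 and an adjusted p of 0.0143. The calls of TGFB2, TIMP1 and PPP1R14B were lost without the set term, within set 1 and with the length and GC trend removed. By DESeq2 the adjusted p was 0.117 for TIMP1 and for PPP1R14B, and TGFB2 had none. Without the filter TIMP1 and PPP1R14B lost their calls. Single replicate numbers also ended the calls: PPB replicate 3 for TGFB2, MPB replicate 1 or PPB replicate 1 for TIMP1, and MPB replicate 1 or PPB replicate 3 for PPP1R14B.

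Averaged over the 4 doses, MPB and PPB differed in 31 genes, 3 higher with MPB and 28 lower, or 0.139% of those tested. This contrast came in addition to the 4 pairs and was adjusted over its own genes. The 3 higher genes were GCNT1, FN1 and PALM2AKAP2, by 0.48, 0.30 and 0.25, and FN1 had a 95% interval from 0.16 to 0.44 and an adjusted p of 0.0475. Of the 28 lower genes 9 were ribosomal protein and 7 mitochondrially coded. TNNI2, a troponin subunit, OCEL1, PIN4, RPS29 and NAA38 had the largest differences, from -0.83 to -0.38. With MPB replicate 1 left out edgeR called 0 genes in this contrast, with 1455 at an unadjusted p under 0.05, and without MPB replicate 2 it called 188. The fit within set 1 called 2 and that within set 2 178, with none in both.

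At 25 µM, the 23 genes named for MPB were set beside PPB as a description, since they were chosen for their difference with MPB. With PPB 20 of the 23 had the same direction against controls, 0 were called and 6 had an unadjusted p under 0.05. The genes were chosen against the same controls, so a shared direction was favoured in advance. The 95% interval of MPB minus PPB lay on 1 side of 0 for 13 genes and held 0 for 10. For CXCL8, which is not among the 23, at 112, 69.6, 48.3 and 52 CPM with MPB and 38.9, 45, 33.1 and 41.3 CPM with PPB, the difference was 0.80 with an interval from 0.37 to 1.24 and an adjusted p of 0.288. For all 10 genes whose interval held 0, it reached past 1.5-fold in at least 1 direction, so a missing call does not show that the esters act alike.

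**Figure D5:**
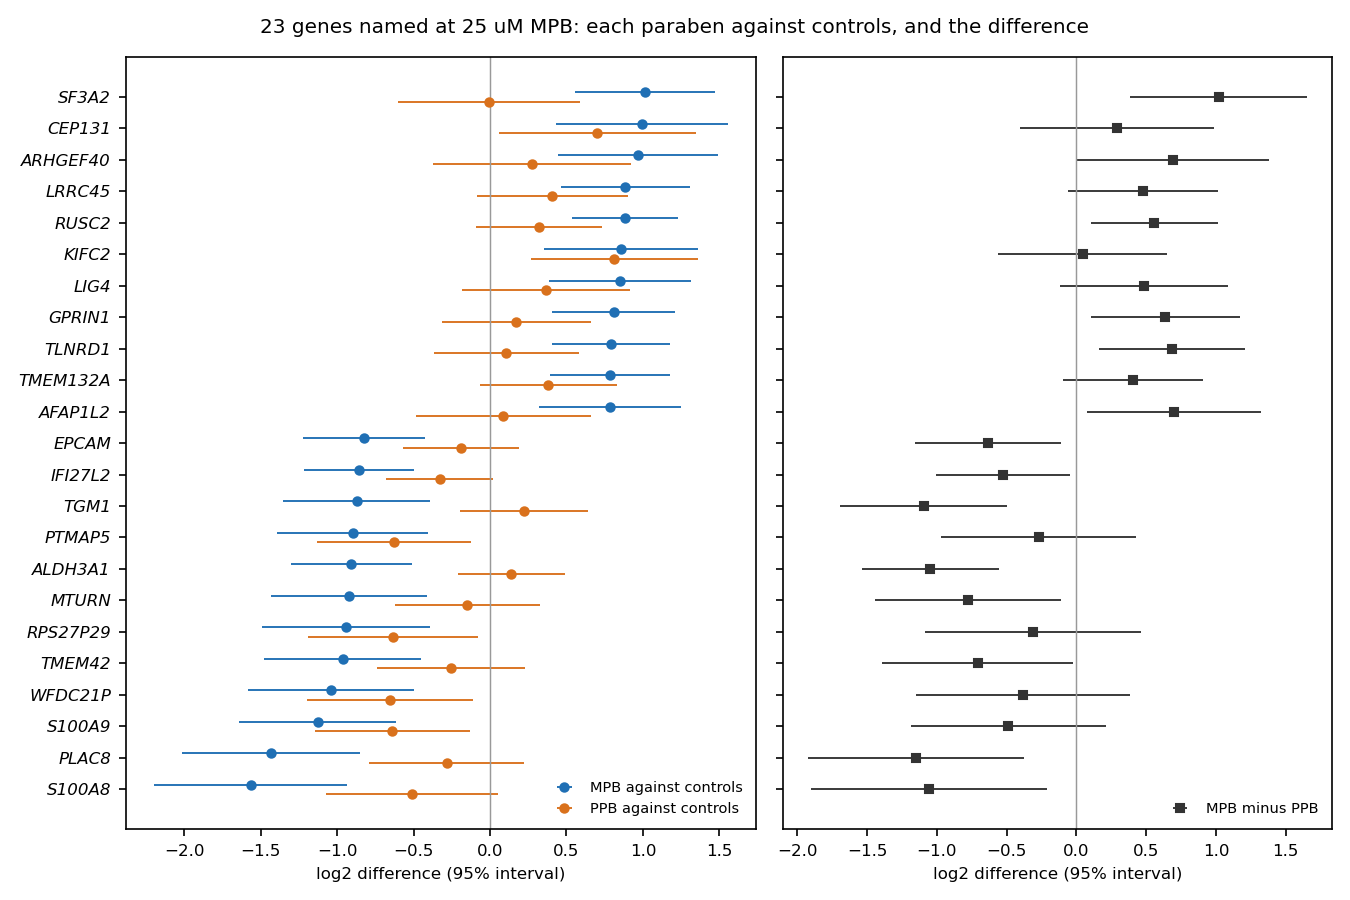
The 23 genes named at 25 µM MPB, with the log2 difference (horizontal axes, bars for 95% intervals) of MPB and of PPB against controls on the left and MPB minus PPB on the right. The intervals of the difference lie on 1 side of 0 for 13 genes and cross it for 10, and none passed the test over all genes and pairs.

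A falling dose trend was called in both parabens for 1 gene, SAA1, which encodes serum amyloid A1, an acute phase protein. With MPB it was at 1270, 1119 and 1404 CPM at 0.025 µM and at 425, 729, 765 and 625 CPM at 25 µM. With PPB it was at 1190, 1569 and 964 CPM at 0.025 µM and at 705, 605, 675 and 723 CPM at 25 µM. Controls ran from 667 to 1098 CPM in set 1 and from 586 to 1375 CPM in set 2. The lowest dose lay above most controls and the highest mostly inside or below their range. The slope per 10-fold dose was -0.30 ± 0.06 for MPB (SE, adjusted p = 0.0254) and -0.31 ± 0.06 for PPB (SE, adjusted p = 0.0211), and the PPB trend was lost by DESeq2, without the filter or the set term, within either set, with the length and GC trend removed and without PPB replicate 1, 2 or 3. The MPB trend of SAA1 was lost without the filter or the set term, within either set, with the length and GC trend removed and without MPB replicate 1 or 4. SAA1 and its neighbour SAA2 are near-identical copies, so its counts are uncertain. SOD2, the mitochondrial superoxide dismutase, fell by 0.25 ± 0.05 per 10-fold dose of MPB (SE, adjusted p = 0.0254), a call lost without the filter or the set term, within either set and without MPB replicate 1 or 4.

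Against the 3 bisphenols at 25 µM, MPB at 25 µM called 32 genes, 15 higher and 17 lower, or 0.143%, and PPB called 1, or 0.00448%, with 1226 at an unadjusted p under 0.05. ALDH3A1 was lower with MPB than with the bisphenols by -1.26 ± 0.20 (SE, adjusted p = 2.23e-05), and FN1 was higher by 0.54. Without MPB replicate 1 the count was 1. Within set 2 edgeR called 0, with 916 at an unadjusted p under 0.05, and FN1 differed by -0.025. The gene that PPB called was TIMP1, at 2079, 2815, 1780 and 1903 CPM, against 2748 to 3725 CPM in the bisphenol libraries of set 1 and 1902 to 2961 CPM in those of set 2. TIMP1 was lower by -0.37 ± 0.07 (SE, adjusted p = 0.0487), and the call was lost without PPB replicate 1 or 3, by DESeq2, without the filter or the set term, with RLE scaling, within set 1, with fewer groups in the fit and with the length and GC trend removed.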

How the data were processed

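The authors deposited whole-number read counts per gene for each library. Per the submitters' processing notes, FastQC, MultiQC, STAR and featureCounts were used with the GRCh38 build. The sources used here state no versions, no strand handling and no treatment of reads shared by near-identical genes, so sense and antisense genes cannot be told apart.

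Counts of all 93 libraries of the plate were fitted with edgeR 4.0.16 in R 4.3.3 (limma 3.58.1), using quasi-likelihood F-tests, TMM scaling and filterByExpr (minimum count 10, minimum total 15), with a mean for each chemical and dose and a term for the number set. P-values were Benjamini-Hochberg adjusted over the 22301 genes of each comparison, and over the 4 MPB against PPB pairs together, and called under 0.05. Where edgeR estimated an infinite prior degrees of freedom (within set 1, within set 2 and without the filter), the fit was redone with its robust option, a step chosen after seeing the data. A standard error is the log2 difference over the square root of F. "Without MPB replicate 1" leaves that number out at every MPB dose. The alternatives were DESeq2 1.42.0, no filter, no set term, RLE scaling, each set alone, only parabens and controls, a replicate block, and each replicate number left out. Removal of each library's trend on transcript length and GC content, the test between sets and list counts under every alternative were chosen after seeing the data. Symbols matched the GENCODE annotation for 92.5% of 34718, and 94.5% of the genes tested had a length. Same-dose libraries differed by more than sampling noise, with a chi-square per degree of freedom of 10.5 to 27.7, so none was merged. Scripts were tested on simulated data.

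Named genes at 25 µM MPB were the 12 highest and 12 lowest genes past the test, at 3 or more in average log2 CPM, whose dosed libraries all lay on 1 side of the control mean of their set. Other comparisons used 5 and 5, or all if at most 5 were called. Some items these rules select are not reported here. Called list genes and a short set of receptor, esterase and marker genes were also named. The members and lists were chosen with earlier results of these data known. Lists have counts and medians only, with no list test.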

Additional observations from a re-analysis of the deposited data

Results flagged for a closer look

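Among 81 groups of 4 to 10 libraries tested for a single library far from the rest by Dixon's criterion, 3 had one, and chance alone marks about 1 in 20 groups. TMEM132A was at 60.9 CPM in replicate 1 of 25 µM MPB and at 24.4 CPM in the next. KIFC2 was highest in control 27 of set 2, at 14.2 CPM against 8.12 CPM in the next control, and TLNRD1 was lowest in control 19 of set 1, at 5.49 CPM against 11.1 CPM.

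The parabens differed from each other, by the direct test, in 3 genes at 2.5 µM. The log2 difference MPB minus PPB was 1.07 for TGFB2, -0.48 for TIMP1 and -0.56 for PPP1R14B. Averaged over doses they differed in 31 genes, a count that was 0 without MPB replicate 1.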

How the results depend on the processing

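Counts of called genes moved with the tool, the set term and single libraries; where no value shows the cause, the cause was not tested. Of 3068 values of named genes under the alternatives, 2348 kept direction and call, 718 lost the call and 2 reversed: TAF15 (-0.11) and FN1 (-0.025) in MPB against bisphenols within set 2.

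DESeq2 called 25 genes for MPB at 0.025 µM (7 higher, 18 lower), and 164 at 0.25 µM. For PPB it called 10 at 0.025 µM, of which 4 were higher and 6 lower, 17 at 2.5 µM, and 40 at the top dose, of which 13 were higher and 27 lower. It called 1 and 0 genes between the parabens at 0.25 and 2.5 µM, 72 over the mean of doses (20 higher, 52 lower), 0 for the PPB trend and 2 for PPB against bisphenols. Its MPB trend had 2 higher and 8 lower genes.

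Without the filter the counts were 15 (MPB 0.025 µM), 4 (PPB 25 µM), 26 and 4 (between parabens at 2.5 and 25 µM), 0 (PPB trend), 50 (MPB against bisphenols) and 0 (PPB against bisphenols). Without the set term MPB had 1, 13, 204 and 307 from the lowest dose up and PPB 0, 16 and 11 at the lower 3 doses. The parabens then differed in 0 genes at 2.5 µM and 6 over the mean, both trends had 0, and the bisphenol comparisons 2 and 0. RLE scaling gave 0 for PPB against bisphenols.

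Within set 1 MPB had 40, 40 and 837 at 0.25, 2.5 and 25 µM, and PPB 37 at 0.025 µM. Between parabens there were 2 at 0.025 µM, 26 at 25 µM and 2 over the mean, 428 for the MPB mean, 44 and 5 for the trends, and 499 and 3 against bisphenols. Within set 2 MPB had 28 at 0.025 µM, 706 at 2.5 µM and 51 at 25 µM, and PPB 6, 14 and 70 at 0.025, 0.25 and 25 µM. Between parabens there were 4, 57, 357 and 3 from the lowest dose up and 178 over the mean, 453 and 45 for the MPB and PPB means, 17 for the PPB trend, and 0 and 4 against bisphenols. With only parabens and controls in the fit, plus the bisphenols at 25 µM where the contrast uses them, the counts were 11 (MPB 0.025 µM), 3 (PPB 25 µM), 12 (between parabens at 2.5 µM), 4 (PPB trend) and 0 (PPB against bisphenols).

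With the length and GC trend removed MPB had 194 and 309 at 2.5 and 25 µM, and PPB 9 and 0 at 0.025 and 25 µM. The parabens differed in 0 genes at 2.5 µM and 16 over the mean, the trends had 3 and 0, and the bisphenol comparisons 13 and 0.

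Leaving out each replicate number in turn gave 3 to 14, 33 to 183, 72 to 714 and 59 to 704 genes for MPB from the lowest dose up, and 0 to 21, 14 to 53, 7 to 33 and 0 to 4 for PPB. The ranges were 0 to 1, 0 to 25, 1 to 264 and 0 to 19 between parabens, with the highest of the last 3 without MPB replicate 2. They were 488 to 1003 for the MPB mean, 43 to 136 for the PPB mean, 0 to 188 between the means, 0 to 118 and 0 to 5 for the trends, and 1 to 241 and 0 to 1 against bisphenols. The lowest value of MPB at 0.25 and 25 µM, its mean, its trend, the difference of means and MPB against bisphenols came without MPB replicate 1. The lowest of PPB at 0.025, 0.25 and 25 µM and of its mean came without PPB replicate 2.

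Replicate numbers did not pair the libraries: 4 of 15 same-number pairs had a correlation of deviations over 0.1, and 5 libraries correlated best with their own number. With the replicate block the parabens differed in 11 genes at 2.5 µM and 48 over the mean. No paired analysis was possible because the controls share no replicate number with the dosed libraries, for the comparisons with controls.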

Other observations

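Among the 120 genes called in both sets for MPB averaged over doses were nuclear genes of the respiratory chain that no list held, chosen here after their values were seen. COX5B, a cytochrome c oxidase subunit, was lower by -0.32 in set 1 and -0.46 in set 2, and UQCR10, of complex III, by -0.36 and -0.56. Signalling genes of that group were higher: NFKBIZ, an NF-kappa-B cofactor, by 0.47 and 0.53, and PLXNA2, a semaphorin receptor, by 0.49 and 0.55. CD70, a ligand of the tumour necrosis factor family, was lower by -0.66 in both sets, and S100A4, a calcium-binding protein, by -0.57 and -0.61.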
